A study of Mus musculus with 7 samples.

Results

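The genes of the NRF2 pathway, the antioxidant response of the cell, were followed in kidney RNA of diabetic and nondiabetic mice. The 10 genes taken were Nfe2l2, Keap1, Nqo1, Hmox1, Gclc, Gclm, Slc7a11, Txnrd1, Gsr and Srxn1, each found by its gene symbol. All 10 were among the 17537 genes with a value, and 9 of them passed the filter on low values, as did 13976 genes in all. The kidneys came from male C57BL/6 mice, 8 to 10 weeks old at the start, with 1 library per mouse. The 3 nondiabetic controls (C, replicates 2, 8 and 9) received no streptozotocin. The 2 DM-22 mice (replicates 1 and 2) had received streptozotocin, a toxin of the insulin-producing beta cells, at 60 mg/kg on 5 days and were killed after 22 weeks. The 2 DM+SGLT2i mice (replicates 1 and 2) had the same streptozotocin diabetes and, from week 16, drank water with dapagliflozin (25 mg/kg) during the last 6 weeks. Dapagliflozin inhibits SGLT2, the glucose transporter of the proximal tubule, and lowers blood glucose. No gene was deleted in any group, and the diabetes is a chemical model of insulin deficiency.

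NRF2, the product of Nfe2l2, is a transcription factor that KEAP1 holds in the cytoplasm and hands to a CUL3 ubiquitin ligase for degradation. Oxidants and electrophiles modify cysteines of KEAP1, and NRF2 then accumulates, pairs with small MAF proteins and binds antioxidant response elements in front of its target genes. These targets make glutathione, reduce disulfides and quinones, degrade heme and conjugate electrophiles. NRF2 is regulated largely by the stability of its protein, which RNA levels do not measure.

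The antioxidant response element has the core TGACNNNGC, and the form TGAGNNNGC is also bound, where N is any base. The forms differ at 1 base and cannot match at the same place of a strand. Both forms were searched on both strands in windows reaching from 250 bases before to 50 bases after each annotated gene start (RefSeq, build GRCm38.p6, the same coordinates as mm10). Windows were read for Nfe2l2, Keap1, Nqo1, Gclm, Slc7a11, Txnrd1 and Srxn1. At least 1 core lay in a window of 5 of these 7 genes, namely Nfe2l2, Srxn1, Slc7a11, Gclm and Txnrd1, as it did for 30.8% of the 27025 genes with a window. No core lay in the windows of Nqo1 and Keap1, which says only that these letters are absent from this stretch. Of all 32851 promoter windows, 27.8% held at least 1 core of either form and 12.4% held the TGACNNNGC form, so that a match is common and is given as a description. The matches before a start are shown because they place the element for the genes followed here. That of Txnrd1 lies before an internal start, within the span of the gene. The sequences are written 5′ to 3′ on the strand of the gene, and capitals mark the core or, where it lies on the opposite strand, its complement.
Nfe2l2 (chr2:75704885-75704913, minus strand, core from 240 bases before the start): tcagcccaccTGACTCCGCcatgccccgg
Srxn1 (chr2:152105356-152105384, plus strand, core from 158 bases before the start, opposite strand): tctactgagaGCCGACTCAtcctctctgg
Srxn1 (chr2:152105469-152105497, plus strand, core from 45 bases before the start): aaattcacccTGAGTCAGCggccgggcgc
Gclm (chr3:122245413-122245441, plus strand, core from 134 bases before the start, opposite strand): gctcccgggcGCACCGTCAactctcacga
Slc7a11 (chr3:50443692-50443720, minus strand, core from 97 bases before the start, opposite strand): taatgttggcGCTTTCTCAagctggagtt
Txnrd1 (chr10:82859104-82859132, plus strand, core from 92 bases before the start of 1 of its 3 annotated promoters, opposite strand): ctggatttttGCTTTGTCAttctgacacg

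Values are given as CPM, read counts of a gene divided by the normalised total of the library. The libraries held between 46456125 and 56541594 reads on listed genes, and 1 read was worth between 0.0180 and 0.0231 CPM. The tissue was kidney by its markers: Umod, made by the thick ascending limb, lay between 2337 and 6933 CPM, and Slc34a1, the phosphate transporter of the proximal tubule, between 2841 and 9452 CPM. The make-up of the libraries differed within groups. The summed level of 6 proximal tubule markers was 5472 CPM in control replicate 2, against 15279 and 13181 CPM in control replicates 8 and 9, and it was 5721 and 14728 CPM in DM-22 replicates 1 and 2. Control replicate 2 also had the highest sums of 6 macrophage markers (488 CPM, against 135 and 136 CPM in the other controls) and of 4 tubular injury markers (148 CPM, against 12.5 and 15.3 CPM). The members and the lists are therefore compared with all 3 controls and again without control replicate 2. In whole kidney, fewer cells of a type and less RNA per cell cannot be told apart.

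Compared per length of transcript, 4 genes led the pathway. Levels between genes were compared as CPM per kb of all annotated exons joined, which understates genes with long alternative exons. Nqo1 stood first at 80.3 ± 30.3 CPM per kb (SD over 7 libraries), followed by Gclc at 73.6 ± 16.9, Gclm at 73.2 ± 7.75 and Gsr at 67.4 ± 4.97 CPM per kb. These 4 genes overlapped: Nqo1 exceeded Gclc in 5 of 7 libraries, Gclc exceeded Gclm in 4, and Gclm exceeded Gsr in 5. Gsr exceeded the next gene, Srxn1 (32.5 ± 6.01 CPM per kb), in all 7 libraries. Srxn1, Hmox1 (31.0 ± 9.22), Nfe2l2 (29.8 ± 2.63) and Txnrd1 (26.7 ± 4.06) formed a second set whose order changed between libraries. Keap1 (12.3 ± 0.891 CPM per kb) lay below Txnrd1 in all 7 libraries. Slc7a11 was lowest at 0.0309 ± 0.0245 CPM per kb. The transcript of the sensor was thus less abundant per length than that of the factor it binds, with an Nfe2l2 to Keap1 ratio between 2.06 and 2.68 in the 7 libraries.

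**Figure D1:**
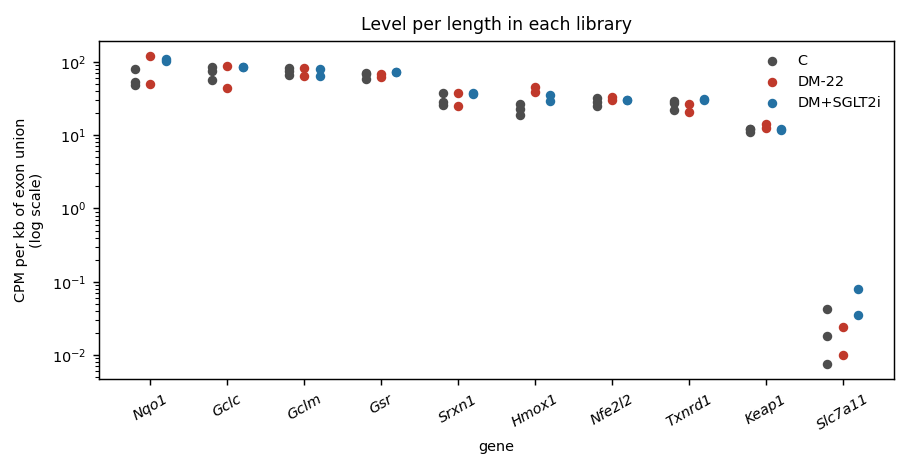
Level of each NRF2 pathway gene in CPM per kb of joined exons (log axis), 1 point per library, coloured by group and ordered by the mean over 7 libraries. Nqo1, Gclc, Gclm and Gsr lie between 43.9 and 119 CPM per kb, Keap1 lies near 12.3, and Slc7a11 lies at or below 0.0787.

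The question for each comparison was whether these genes differed with diabetes and whether they did so in mice given the SGLT2 inhibitor. No NRF2 pathway gene passed an adjusted p-value of 0.05 in any comparison with all 3 controls (limma over all genes tested, Benjamini-Hochberg adjustment). The share of all genes called was 0.0% in DM-22 kidneys against controls, 0.0% in DM+SGLT2i kidneys against controls, 0.0% between both diabetic groups and 0.0% in the 4 diabetic mice against controls, so these fits called nothing to compare with. At an unadjusted p-value under 0.05, Hmox1 alone of 9 genes was reached in DM-22 kidneys, where 4.47% of all genes were, and again Hmox1 alone in DM+SGLT2i kidneys, where 1.08% were. It was also the 1 gene reached in the 4 diabetic mice together (2.04% of all genes), and 0 of 9 were reached between DM+SGLT2i and DM-22 kidneys (3.91%). The median log2 fold change of the 9 genes was 0.03 in DM-22 kidneys and 0.22 in DM+SGLT2i kidneys, beside 0.00 and -0.01 over all genes tested. In DM-22 kidneys 5 of the 9 genes had a positive log2 fold change, and in DM+SGLT2i kidneys 8 of 9 did, all except Gclm. Over all genes, 50.7% and 47.2% were positive. The median in DM-22 kidneys was -0.06 with libraries scaled by their totals alone, a scaling that put the median of all genes at -0.08.

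Without control replicate 2, still 0 of the 9 genes passed the adjusted threshold, while it was passed by 0.0144% of all genes in DM-22 kidneys, 0.123% in DM+SGLT2i kidneys, 0.0% between both diabetic groups and 0.202% in the 4 diabetic mice (limma). At an unadjusted p-value under 0.05, Hmox1 alone was reached in DM-22 kidneys, where 25.4% of all genes were. Hmox1 and Nqo1 were reached in DM+SGLT2i kidneys (17.9% of all genes) and in the 4 diabetic mice (25.0%), and 0 genes between both diabetic groups (10.7%). A share of 1 or 2 of 9 genes is close to these backgrounds. The median of the 9 genes was then 0.18 in DM-22 kidneys and 0.15 in DM+SGLT2i kidneys. Fitted with the 2 groups alone and without control replicate 2, a setting added after the data were seen, DM+SGLT2i kidneys differed from controls for 11.9% of all genes at the adjusted threshold, among them Nqo1 and Hmox1 (2 of 9). DM-22 kidneys fitted in the same way gave 0.0%, with 1574 genes higher and 1929 lower before adjustment (limma).

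**Figure D2:**
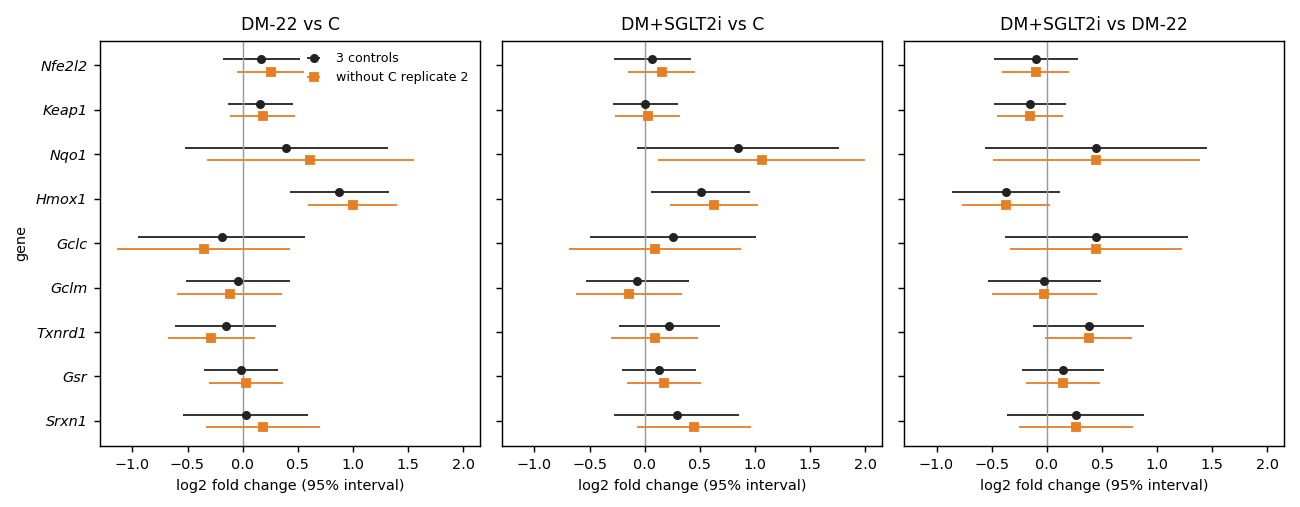
Log2 fold change with its 95% interval (limma) of the 9 genes tested, for DM-22 against C, DM+SGLT2i against C and DM+SGLT2i against DM-22, with 3 controls (circles) and without control replicate 2 (squares). The interval of Hmox1 lies above 0 in both comparisons with controls, and that of Nqo1 lies above 0 in DM+SGLT2i kidneys only without control replicate 2.

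Of the regulators, Nfe2l2 (ENSMUSG00000015839, chr2:75675513-75704641) encodes NRF2 itself. Its level was 121, 95.8 and 108 CPM in control replicates 2, 8 and 9, 127 and 115 CPM in DM-22 kidneys, and 113 and 113 CPM in DM+SGLT2i kidneys. All 4 diabetic libraries lay above control replicates 8 and 9, and control replicate 2 lay among them. The log2 fold change was 0.17 (SE 0.15) in DM-22 kidneys and 0.07 (SE 0.15) in DM+SGLT2i kidneys, with adjusted p = 0.814 and 0.9997 (limma). The 95% interval in DM-22 kidneys ran from 0.882-fold to 1.43-fold. With control replicate 2 left out they were 0.25 (SE 0.12) and 0.15 (SE 0.12), with adjusted p = 0.257 and 0.541 (limma).

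Keap1 (ENSMUSG00000003308, chr9:21229730-21239361) encodes the sensor that targets NRF2 for degradation. It was measured at 57.2, 57.5 and 52.2 CPM in controls, 58.7 and 65.8 CPM in DM-22 kidneys, and 56.0 and 55.6 CPM in DM+SGLT2i kidneys. Both DM-22 libraries lay above all controls by a small margin, and both DM+SGLT2i libraries lay within the controls. The log2 fold change was 0.16 (SE 0.12, adjusted p = 0.804) in DM-22 kidneys and 0.01 (SE 0.12, adjusted p = 0.9997) in DM+SGLT2i kidneys (limma). With control replicates 8 and 9 alone the values were 0.18 (adjusted p = 0.381) and 0.03 (adjusted p = 0.924, limma). Over the 7 libraries Keap1 varied by 1.26-fold from the lowest to the highest.

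Hmox1 (ENSMUSG00000005413, chr8:75093621-75100589) encodes heme oxygenase 1, which opens heme to biliverdin, iron and carbon monoxide. Its level was 47.0, 33.4 and 39.4 CPM in control replicates 2, 8 and 9, 67.5 and 78.8 CPM in DM-22 kidneys, and 51.0 and 62.3 CPM in DM+SGLT2i kidneys. Hmox1 was the 1 gene of 9 with every diabetic library above every control, a pattern held by 1.31% of all genes tested. The DM-22 libraries both lay above the DM+SGLT2i libraries. The means were 39.9 ± 6.80 CPM in controls (SD, n = 3), 73.2 ± 8.00 in DM-22 kidneys (n = 2) and 56.7 ± 8.02 in DM+SGLT2i kidneys (n = 2). The log2 fold change against controls was 0.87 (SE 0.19, adjusted p = 0.804) in DM-22 kidneys and 0.51 (SE 0.19, adjusted p = 0.9997) in DM+SGLT2i kidneys (limma). DM+SGLT2i kidneys were lower than DM-22 kidneys by a log2 fold change of -0.37 (SE 0.21, adjusted p = 0.881, limma), with an interval from 0.550-fold to 1.09-fold.

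With control replicates 8 and 9 alone, the log2 fold change of Hmox1 was 0.997 (SE 0.16, adjusted p = 0.0820) in DM-22 kidneys and 0.63 (SE 0.16, adjusted p = 0.159) in DM+SGLT2i kidneys (limma). Over 16 alternatives the adjusted p-value of Hmox1 ran from 0.0820 to 0.9996 in DM-22 kidneys and from 0.0438 to 0.99999 in DM+SGLT2i kidneys, the lowest value coming from the fit of 2 groups added later. Leaving out any 1 library kept its log2 fold change between 0.75 and 0.997 in DM-22 kidneys and between 0.36 and 0.65 in DM+SGLT2i kidneys. In the exact permutation test of 4 diabetic against 3 control libraries (two-sided, 35 assignments), Hmox1 differed by 0.69 in mean log2 level, with p = 0.0571 where the smallest possible is 0.0286, and adjusted p = 0.999 over all genes. The other 8 genes had p between 0.171 and 0.943 in the same exact permutation test. When control replicate 2 was left out, 15 assignments cannot give a p below 0.0667, and Hmox1 and Nfe2l2 reached that smallest value, as did 20.0% of all genes.

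Macrophages, which degrade heme of red blood cells, are rich in HMOX1. The summed level of the macrophage markers (6 of 6 listed, all detected) was 135 to 488 CPM in controls, 144 to 269 CPM in DM-22 kidneys and 249 to 295 CPM in DM+SGLT2i kidneys. DM-22 replicate 2 had the highest Hmox1 with a macrophage sum of 144 CPM, close to the 136 and 135 CPM of control replicates 8 and 9, while control replicate 2 had the highest sum, 488 CPM, with 47.0 CPM of Hmox1. Within the sum of DM-22 replicate 2, Csf1r was low, at 37.3 CPM, against 77.4 and 68.8 CPM in control replicates 8 and 9. The other 5 of 6 markers (Cd68, Adgre1, C1qa, C1qb and Lyz2) were higher in both DM-22 libraries than in these 2 controls, a pattern of 29.9% of all genes. All 5 were highest in control replicate 2. Of the red blood cell markers 1 of 5 had a value: Alas2, the erythroid enzyme of heme synthesis, was at 32.8, 7.98 and 4.42 CPM in control replicates 2, 8 and 9 and between 13.9 and 25.9 CPM in the 4 diabetic libraries. The part of either cell type in the Hmox1 levels was not tested.

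Nqo1 (ENSMUSG00000003849, chr8:107388225-107403206) encodes NAD(P)H quinone dehydrogenase 1, which reduces quinones and is a common readout of NRF2. It was measured at 123, 82.6 and 74.8 CPM in control replicates 2, 8 and 9, 185 and 78.1 CPM in DM-22 replicates 1 and 2, and 159 and 169 CPM in DM+SGLT2i kidneys. The DM-22 libraries held the highest value of all 7 and a value within the controls, so that they differed by more than any group means did. Both DM+SGLT2i libraries lay above all 3 controls. Nqo1 had a log2 fold change of 0.40 (SE 0.38, adjusted p = 0.820) in DM-22 kidneys and 0.84 (SE 0.38, adjusted p = 0.9997) in DM+SGLT2i kidneys (limma). The value in DM-22 kidneys was -0.22 without DM-22 replicate 1, 1.02 without DM-22 replicate 2 and 0.61 (adjusted p = 0.351, limma) without control replicate 2. Without control replicate 2 the log2 fold change in DM+SGLT2i kidneys was 1.06 (SE 0.38, adjusted p = 0.237), and with both groups fitted alone it was 1.06 (SE 0.12, adjusted p = 0.00760, limma). Over 16 alternatives the adjusted p-value in DM+SGLT2i kidneys ran from 0.00760 to 0.99999.

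The libraries low and high in Nqo1 were also separated by the sums of 4 of the marker lists. The sums of the other lists did not split the libraries in this way. Intercalated cell markers, for example, summed to 208 CPM in DM-22 replicate 2, low in Nqo1, and to 127 CPM in DM+SGLT2i replicate 1, high in Nqo1. The 3 libraries with 74.8 to 82.6 CPM of Nqo1 (control replicates 8 and 9 and DM-22 replicate 2) had proximal tubule sums between 13181 and 15279 CPM, and the 4 libraries with 123 to 185 CPM had sums between 5472 and 9951 CPM. The same 4 libraries had the 4 highest sums of thick ascending limb markers (4696 to 12921 CPM, against 3294 to 4013 CPM), of macrophage markers (249 to 488 CPM, against 135 to 144 CPM) and of tubular injury markers (59.1 to 148 CPM, against 12.5 to 17.6 CPM). Of these 4 libraries, control replicate 2 was the lowest in Nqo1, at 123 CPM. It had the lowest proximal tubule sum (5472 CPM) and the highest macrophage (488 CPM) and tubular injury (148 CPM) sums. All markers of the 4 lists were detected in every library. Slc34a1 made up much of the proximal tubule sum, with 9452 of 14728 CPM in DM-22 replicate 2. Of the single markers, Lrp2, Cubn, Kcnj1 and Csf1r did not split the libraries as the sums did, and the others did. Cubn was at 520 CPM in DM-22 replicate 2, below the 549 CPM of DM-22 replicate 1 and the 621 and 660 CPM of DM+SGLT2i kidneys. The part of the cell make-up in the Nqo1 difference was not tested.

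**Figure D3:**
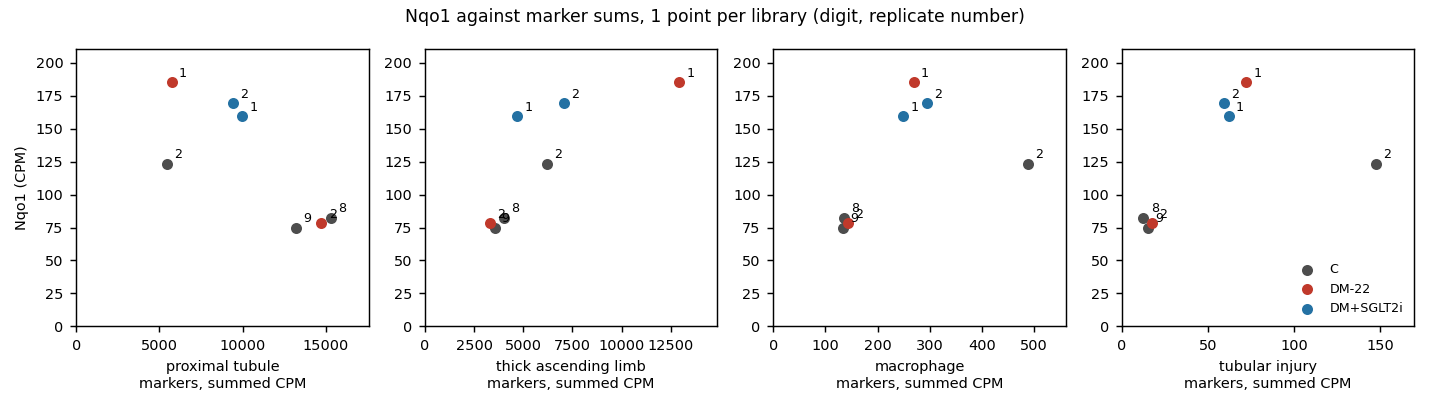
Nqo1 in CPM (vertical axis) against the summed CPM of proximal tubule, thick ascending limb, macrophage and tubular injury markers (horizontal axes), 1 point per library, coloured by group with the replicate number beside it. The 3 libraries at or below 82.6 CPM of Nqo1 are also the 3 highest in proximal tubule markers and the 3 lowest in the other 3 sums.

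Of the genes of glutathione synthesis, Gclc (ENSMUSG00000032350, chr9:77754535-77794485) encodes the catalytic subunit of glutamate-cysteine ligase, the rate-limiting enzyme of the pathway. It stood at 212, 282 and 316 CPM in controls, 329 and 165 CPM in DM-22 kidneys, and 315 and 321 CPM in DM+SGLT2i kidneys. DM-22 replicate 2 was the lowest and DM-22 replicate 1 the highest of all 7 libraries, and the groups overlapped. Gclc had a log2 fold change of -0.19 (SE 0.32) in DM-22 kidneys and 0.26 (SE 0.32) in DM+SGLT2i kidneys, with adjusted p = 0.887 and 0.9997 (limma). Without DM-22 replicate 2 the value in DM-22 kidneys was 0.30, so that its sign rested on that library. Leaving out control replicate 2 instead gave -0.35 and 0.09, with adjusted p = 0.505 and 0.899 (limma).

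Gclm (ENSMUSG00000028124, chr3:122245557-122270732) encodes the modifier subunit, which raises the affinity of the ligase for glutamate. Its level was 422, 511 and 477 CPM in controls, 511 and 404 CPM in DM-22 kidneys, and 405 and 494 CPM in DM+SGLT2i kidneys. Each diabetic group had 1 library close to the highest and 1 below the lowest control. The log2 fold changes were -0.04 (SE 0.20, adjusted p = 0.971) and -0.07 (SE 0.20, adjusted p = 0.9997), with an interval in DM-22 kidneys from 0.701-fold to 1.34-fold (limma). They were -0.12 and -0.14 without control replicate 2, with adjusted p = 0.724 and 0.731 (limma). The subunits did not keep a fixed ratio: per kb of exons, Gclc over Gclm was 0.841, 0.921 and 1.11 in controls, 1.07 and 0.684 in DM-22 kidneys, and 1.30 and 1.08 in DM+SGLT2i kidneys.

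Slc7a11 (ENSMUSG00000027737, chr3:49892526-50443614) encodes the cystine-glutamate exchanger xCT, which imports the cystine used for glutathione. It was barely detected, with 32, 5 and 12 reads in control replicates 2, 8 and 9, 19 and 6 reads in DM-22 kidneys, and 56 and 27 reads in DM+SGLT2i kidneys. As CPM these were 0.586, 0.105 and 0.256, then 0.342 and 0.139, then 1.10 and 0.488. Only DM+SGLT2i replicate 1 reached 1 CPM, so the gene failed the filter and was not among those tested. With no filter its log2 fold change in DM+SGLT2i against DM-22 kidneys was 0.78 (SE 0.35, adjusted p = 0.892, limma), on a scale where the added 0.5 CPM shrinks the change of so low a gene. DM+SGLT2i replicate 1 and control replicate 2, the 2 libraries highest in Slc7a11, also had the highest sums of 3 urothelium and papilla markers (85.2 and 30.7 CPM, against 0.902 to 7.74 CPM in the other 5), and the part of that tissue was not tested.

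Of the reductases, Txnrd1 (ENSMUSG00000020250, chr10:82833951-82897712) encodes the cytosolic thioredoxin reductase. It was measured at 154, 209 and 196 CPM in controls, 146 and 189 CPM in DM-22 kidneys, and 217 and 215 CPM in DM+SGLT2i kidneys. The DM+SGLT2i libraries lay above all other libraries. Txnrd1 had a log2 fold change of -0.16 (SE 0.19, adjusted p = 0.857) in DM-22 kidneys and 0.22 (SE 0.19, adjusted p = 0.9997) in DM+SGLT2i kidneys, and DM+SGLT2i exceeded DM-22 kidneys by 0.38 (SE 0.21, adjusted p = 0.881, limma). Against control replicates 8 and 9 alone the values were -0.29 (SE 0.16, adjusted p = 0.307) and 0.09 (SE 0.16, adjusted p = 0.790, limma), and both DM-22 libraries lay below these controls.

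Gsr (ENSMUSG00000031584, chr8:33652523-33698163) encodes glutathione reductase, which regenerates glutathione from its disulfide. Its level was 192, 190 and 162 CPM in controls, 187 and 172 CPM in DM-22 kidneys, and 199 and 197 CPM in DM+SGLT2i kidneys. The DM+SGLT2i libraries were again the highest, by less than 10 CPM over the highest control. The log2 fold changes were -0.01 (SE 0.14, adjusted p = 0.983) and 0.13 (SE 0.14, adjusted p = 0.9997), and the interval in DM+SGLT2i kidneys ran from 0.867-fold to 1.38-fold (limma). They were 0.03 and 0.17 without control replicate 2, with adjusted p = 0.911 and 0.528 (limma).

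Srxn1 (ENSMUSG00000032802, chr2:152105516-152111376), whose promoter window held the most cores, encodes sulfiredoxin, which repairs hyperoxidised peroxiredoxins. It was measured at 106, 78.8 and 72.9 CPM in control replicates 2, 8 and 9, 69.7 and 107 CPM in DM-22 kidneys, and 101 and 106 CPM in DM+SGLT2i kidneys. DM-22 replicate 1 was the lowest of all 7 libraries and DM-22 replicate 2 the highest, the reverse of their order in Nqo1 and Gclc. Srxn1 had a log2 fold change of 0.03 (SE 0.24, adjusted p = 0.982) in DM-22 kidneys and 0.29 (SE 0.24, adjusted p = 0.9997) in DM+SGLT2i kidneys (limma). In the fit without control replicate 2 the second value was 0.45 (SE 0.21, adjusted p = 0.330, limma), and over 16 alternatives its adjusted p-value ran from 0.0514 to 0.99999.

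**Figure D4:**
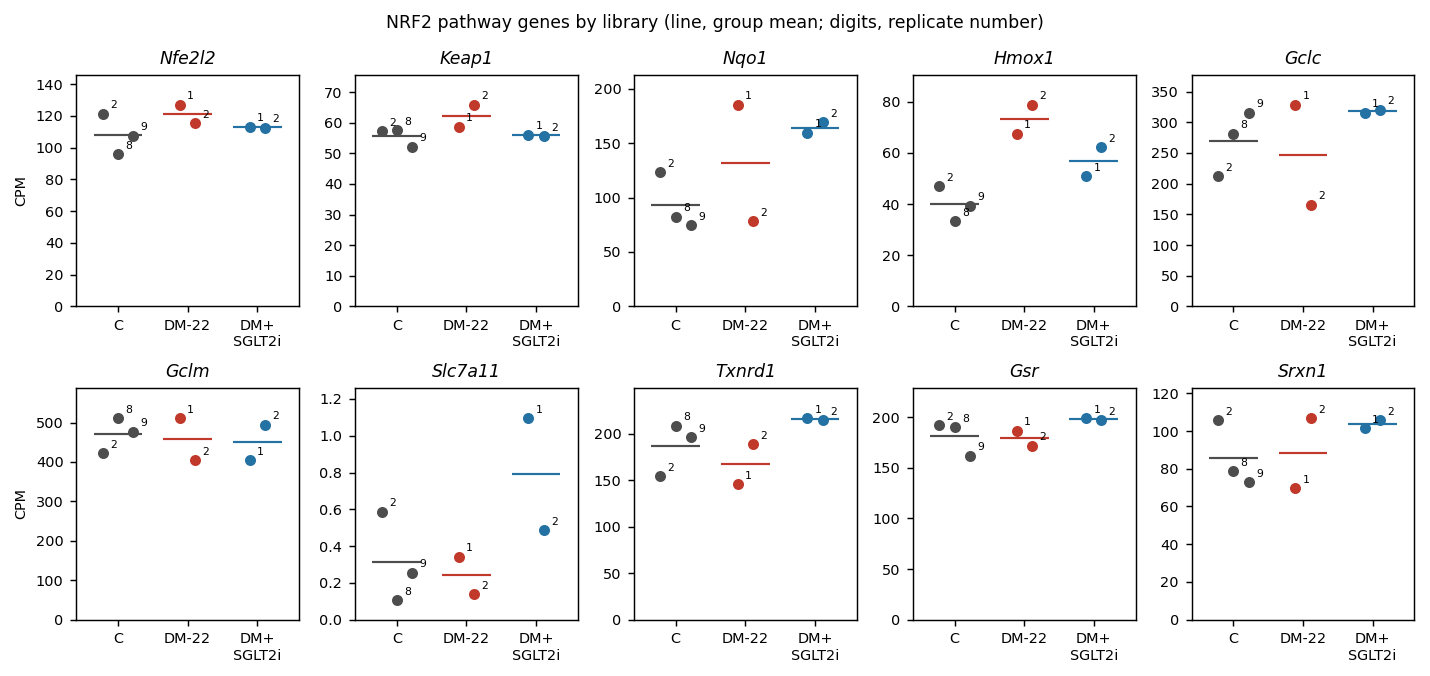
Level in CPM of the 10 NRF2 pathway genes in each library, with the replicate number beside each point and a line at the group mean (axes start at 0). Hmox1 is higher in all 4 diabetic libraries than in the 3 controls, while the DM-22 libraries lie far apart for Nqo1 (185 and 78.1 CPM), Gclc (329 and 165 CPM) and Srxn1 (69.7 and 107 CPM).

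Counted by overlap alone, 2 of 9 genes (Hmox1 and Keap1) had both DM-22 libraries above all 3 controls, a pattern of 10.8% of all genes, and 0 of 9 had them below (9.29%). For DM+SGLT2i kidneys it was 4 of 9 (Nqo1, Hmox1, Txnrd1 and Gsr), a pattern of 5.67% of all genes, and 0 of 9 lay below (6.59%). These counts were, without control replicate 2, 3 of 9 above (29.9% of all genes) and 1 below, Txnrd1 (29.7%), in DM-22 kidneys, 6 of 9 above (27.8%) and 0 below (33.8%) in DM+SGLT2i kidneys, and 2 of 9 above for the 4 diabetic libraries together (Hmox1 and Nfe2l2, 14.9%). DM+SGLT2i libraries both lay above both DM-22 libraries for Txnrd1 and Gsr (21.4% of all genes) and below them for Nfe2l2, Keap1 and Hmox1 (20.0%). No test was made on these counts.

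By the distance between their levels over the libraries, the genes of the pathway did not lie closest to each other. For each gene, log2(CPM + 0.5) was centred over the 7 libraries, and the root mean square difference from every other gene was taken. The values were not scaled, so genes that vary by unlike amounts lie apart even where they rise and fall together. A shared direction was not tested. The nearest other NRF2 pathway gene ranked between 795 and 2909 among 13975 genes. The best rank was that of Gclm seen from Gclc, 795 at a difference of 0.28, while Gclm itself had Gsr nearest, at rank 2214. By the difference itself the closest pair was Nfe2l2 and Keap1, at 0.13, both of which varied little (SD 0.13 and 0.10). Nqo1 was nearest to Fabp5 (0.13), Hmox1 to Hmgcll1 (0.13), Nfe2l2 to Tie1 (0.04), Keap1 to Sf3b2 (0.02) and Gsr to Zfp74 (0.03). Gclc was nearest to Trim46 (0.12), Gclm to Nudcd1 (0.06), Txnrd1 to Acot4 (0.06) and Srxn1 to Sybu (0.03). Nqo1 varied most of the 9 genes, with an SD of 0.57 in log2 level over the libraries, more than 86.9% of all genes tested. Keap1 varied least, with an SD of 0.10, and 5.01% of all genes had a smaller one.

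The partners of NRF2 were followed as a list of 10 genes: the small MAF genes, the repressor Bach1, the ligase parts Cul3 and Rbx1, the KEAP1-binding autophagy receptor Sqstm1, the related factor Nfe2l1, and Btrc and Gsk3b of a second route of NRF2 degradation. None of the 10 passed an adjusted or unadjusted p-value of 0.05 with all 3 controls (limma), and their median log2 fold change was -0.14 in DM-22 kidneys and -0.07 in DM+SGLT2i kidneys. Without control replicate 2, 1 of 10 was higher and 3 were lower in DM-22 kidneys at an unadjusted p-value under 0.05, where 25.4% of all genes were reached, and 0 at the adjusted threshold. With DM+SGLT2i kidneys and control replicates 8 and 9 fitted alone, 1 of 10 passed it, Nfe2l1 at 0.57 (SE 0.14, adjusted p = 0.0488, limma), beside 11.9% of all genes. Mafk, a small MAF partner, stood at 30.2, 36.4 and 52.9 CPM in controls, 27.2 and 24.5 CPM in DM-22 kidneys, and 33.3 and 27.5 CPM in DM+SGLT2i kidneys, with a log2 fold change of -0.58 (SE 0.25) in DM-22 kidneys, or -0.75 (SE 0.21, adjusted p = 0.113, limma) without control replicate 2. Mafg was at 32.7 CPM in control replicate 2, against 87.7 and 92.6 CPM in the other controls and 35.8 to 67.8 CPM in diabetic mice. Nfe2l1 went the other way, with 341 CPM in control replicate 2, 219 and 198 CPM in the other controls and 263 to 473 CPM in diabetic mice. Sqstm1 was highest in DM-22 kidneys, at 793 and 854 CPM, against 595 to 681 CPM in controls and 669 and 645 CPM in DM+SGLT2i kidneys. Bach1 was at 29.7, 45.9 and 42.8 CPM in controls, 29.4 and 37.1 CPM in DM-22 kidneys, and 44.0 and 37.9 CPM in DM+SGLT2i kidneys. Both DM+SGLT2i libraries lay above both DM-22 libraries, and either group overlapped with the controls. The first pattern was held by 3 of 10 partners, beside 21.4% of all genes. Rbx1 lay between 51.2 and 72.5 CPM and Maff between 1.99 and 6.47 CPM over the 7 libraries, also with overlap between controls and diabetic mice.

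A wider list of 28 NRF2 targets was fixed for NADPH supply, conjugation and export, peroxide and thiol reactions, and iron and heme. Of these, 27 had a value and were tested, all except Gpx2. With all 3 controls 0 of 27 passed the adjusted threshold in any comparison (limma). At an unadjusted p-value under 0.05, 0 of 27 were reached in DM-22 kidneys (4.47% of all genes), 2 were higher in DM+SGLT2i kidneys than in controls (Pgd and Abcc4, 1.08%), and 1 was higher than in DM-22 kidneys (Abcc4, 3.91%). Pgd, Abcc4 and Gsta3 were reached in the 4 diabetic libraries together (3 of 27, beside 2.04% of all genes). Positive log2 fold changes were found for 21 of 27 in either diabetic group, with medians of 0.20 in DM-22 and 0.37 in DM+SGLT2i kidneys. Without control replicate 2 the medians were 0.35 and 0.52, with 8 genes higher and 2 lower in DM-22 kidneys, and 13 higher and 2 lower in DM+SGLT2i kidneys, at an unadjusted p-value under 0.05. These shares of 27 stand beside the 25.4% and 17.9% of all genes given above. In the fit of DM+SGLT2i kidneys and control replicates 8 and 9 alone, 13 of 27 were higher and 2 lower at the adjusted threshold, which 11.9% of all genes passed (limma).

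Abcc4, an exporter of organic anions and cyclic nucleotides, was at 103, 93.6 and 62.2 CPM in controls, 120 and 105 CPM in DM-22 kidneys, and 219 and 159 CPM in DM+SGLT2i kidneys. Every diabetic library lay above every control, as it did for Gsta3 and for no other gene of the 27 (1.31% of all genes). The log2 fold change of Abcc4 was 1.14 (SE 0.26, adjusted p = 0.9997) in DM+SGLT2i kidneys against controls and 0.73 (SE 0.28, adjusted p = 0.881) against DM-22 kidneys (limma). Against control replicates 8 and 9 alone, the value in DM+SGLT2i kidneys was 1.28 (SE 0.25, adjusted p = 0.107) for Abcc4 and 0.62 (SE 0.14, adjusted p = 0.129) for Pgd (limma). Pgd, an NADPH-producing enzyme of the pentose phosphate pathway, was at 168, 146 and 126 CPM in controls, 166 and 154 CPM in DM-22 kidneys, and 218 and 200 CPM in DM+SGLT2i kidneys. Gsta3, a glutathione transferase, was at 144, 129 and 122 CPM in controls, 149 and 178 CPM in DM-22 kidneys, and 163 and 165 CPM in DM+SGLT2i kidneys.

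The largest differences of the wider list depended on control replicate 2. Ephx1, a microsomal epoxide hydrolase, was at 364 CPM in that library, against 43.4 and 50.7 CPM in the other controls and 234, 123, 206 and 211 CPM in the diabetic libraries. Cbr3, a carbonyl reductase, was at 12.6 CPM there, against 1.26 and 1.67 CPM in the other controls, 6.86 and 3.79 CPM in DM-22 kidneys and 16.1 and 12.0 CPM in DM+SGLT2i kidneys. The glutathione transferase Gsta1 was at 393 CPM there, against 73.6 and 83.4 CPM, then 126 and 174 CPM, then 323 and 306 CPM in the same groups. For these 3 genes the diabetic libraries lay above control replicates 8 and 9 and, except for Cbr3 in DM+SGLT2i replicate 1, below control replicate 2. All diabetic libraries lay above control replicates 8 and 9 for 16 of 27 genes of the list, beside 14.9% of all genes. No test was made on this count. The log2 fold change of Gsta1 in DM+SGLT2i kidneys was 1.22 (SE 0.69, adjusted p = 0.9997) with all controls and 2.00 (SE 0.18, adjusted p = 0.0490) without that library (limma), the 1 call of the list in that fit. Gsta2, at 715 CPM there, 159 and 174 CPM, then 246 and 346 CPM, then 610 and 601 CPM, is nearly identical to Gsta1 in sequence, and how their shared reads were counted is not known here.

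Of the rest of the list, Me1 and Osgin1 (2 of 27) were lower in every diabetic library than in control replicates 8 and 9. This pattern was held by 2905 of the 13841 genes tested without control replicate 2. Both genes were higher in the diabetic libraries than in control replicate 2, so their direction also depended on that library. Me1, the cytosolic malic enzyme, was at 347, 783 and 748 CPM in controls, 475 and 681 CPM in DM-22 kidneys, and 485 and 522 CPM in DM+SGLT2i kidneys. Osgin1, an oxidative stress-induced growth inhibitor, was at 44.1, 92.0 and 139 CPM in controls and between 56.7 and 75.4 CPM in diabetic mice. Of the iron and heme genes, Fth1 and Ftl1, the ferritin subunits, and Slc48a1, a heme transporter, each had a positive log2 fold change in both diabetic groups, from 0.14 to 0.42, and none was reached at an unadjusted p-value under 0.05 with all controls. The fourth gene of that group, the biliverdin reductase Blvrb, had 0.28 (SE 0.17) in DM-22 and -0.11 (SE 0.17) in DM+SGLT2i kidneys, where both libraries lay below all controls. Idh1, a cytosolic source of NADPH, was at 198 CPM in DM-22 replicate 1, the library highest in thick ascending limb markers, and between 450 and 620 CPM in the other 6 libraries. Abcc1, an exporter of glutathione conjugates, was highest in the same library at 79.0 CPM, against 21.4 to 51.4 CPM in the others. Aox1, an aldehyde oxidase, was at 4.64 CPM in DM+SGLT2i replicate 1, the library highest in urothelium and papilla markers, and between 0.555 and 1.10 CPM in the others. Blvrb was at 23.4 CPM in DM-22 replicate 2 and at most 17.5 CPM in the others, so that in each of these 4 genes 1 library stood apart from the rest. The part of the cell make-up in these values was not tested.

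**Figure D5:**
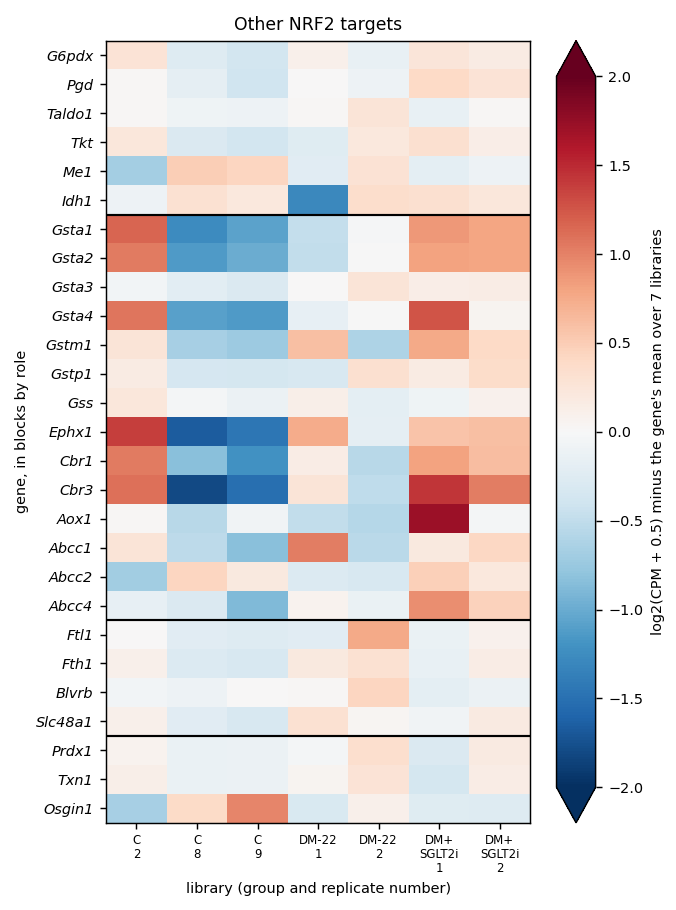
Deviation of log2(CPM + 0.5) from the gene's mean over 7 libraries for the 27 further NRF2 targets, in blocks from top to bottom for NADPH supply, conjugation and export, iron and heme, and peroxide and thiol. Ephx1, Cbr3, Gsta1, Gsta2 and Gsta4 are high in control replicate 2, low in control replicates 8 and 9 and between or high in the diabetic libraries.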

How the data were processed

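RNA of 7 kidneys had been made into polyA-selected, strand-specific libraries. Per the labels, the authors used bcl2fastq, FastQC, Trim Galore, STAR and edgeR with build mm10, with versions not given in the sources used here. They deposited log2 values of TMM-normalised CPM for 17537 genes, with a constant averaging 2 reads added. CPM were recovered by subtracting this constant (floor -4.66), and 100% of the values then gave whole reads within 0.1 read. The 13976 genes reaching 1 CPM in 2 or more libraries were tested with limma 3.58.1 (R 4.3.3, lmFit and eBayes with trend) on log2(CPM + 0.5), all 3 groups in 1 fit, two-sided, with Benjamini-Hochberg adjustment and a threshold of 0.05. The sample titles gave the groups and replicate numbers. Exact permutations used Python 3.11.15. Positions and exon lengths are from GENCODE M21 (GRCm38), which held all 17537 identifiers. Named genes were the 10 members, list members with an unadjusted p-value under 0.05 or at the extremes, and the genes nearest in pattern. Fth1, Slc48a1, Gsta2 and Gsta4 were named after their values were seen. Members, lists and the setting aside of control replicate 2 were chosen with earlier results of these data known. The limma p-values set each difference against the spread between these mice, 2 or 3 per group. That spread was pooled over the groups in the fit and moderated over all genes. The exact permutation p-values rest on the assignments of libraries alone. The authors' other experiments were not analysed here.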

Additional observations from a re-analysis of the deposited data

Results flagged for a closer look

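In the 4 diabetic libraries taken as 1 group, the 10 NRF2 pathway genes were searched for a library far from the other three, by Dixon's ratio of the gap to the range against its 95% critical value for 4 libraries. Groups of 2 or 3 libraries were not tested in this way. Gclc was flagged at 165 CPM in DM-22 replicate 2, with a ratio of 0.919, the other diabetic libraries lying between 315 and 329 CPM. Srxn1 was flagged at 69.7 CPM in DM-22 replicate 1, with a ratio of 0.852, the others lying between 101 and 107 CPM. Chance flags about 1 in 20 groups where all values come from 1 normal distribution. Here DM-22 and DM+SGLT2i mice were pooled, and the share of all genes that this rule would flag is not given. The flagged libraries are the pair of DM-22 mice. Of the 4 diabetic libraries these were also farthest apart in proximal tubule markers (14728 and 5721 CPM), and the part of that difference was not tested.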

How the results depend on the processing

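The alternatives were each library left out, a pseudocount of 0.1 or 1 CPM, no filter, a filter of 5 CPM, median-of-ratios scaling, library totals without TMM, voom weights, and fits of the compared groups alone. The number of NRF2 pathway genes past the adjusted threshold was 0 in every comparison and alternative, except for 2 (Nqo1 and Hmox1) in DM+SGLT2i against C with these groups alone and without control replicate 2, which was added after the data were seen. The log2 fold changes of Hmox1 kept their sign in every alternative. The deviations of same-numbered diabetic libraries from their group means had a correlation of -0.04 over genes. With 2 libraries per group this cannot show whether the libraries were paired. A fit of DM+SGLT2i against DM-22 with a replicate block also called 0 genes, with a median over the genes of 0.15.

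Leaving out 1 library moved the median over the 9 genes between -0.029 and 0.18 in DM-22 against C and between -0.071 and 0.15 in DM+SGLT2i against DM-22. These medians were -0.062 and 0.25 with library totals without TMM, and the first was 0.18 with the 2 groups alone and without control replicate 2. The signs of small changes turned. In DM-22 against C, leaving out 1 library gave ranges from -0.22 to 1.02 (Nqo1), -0.34 to 0.031 (Txnrd1), -0.21 to 0.13 (Gclm), -0.093 to 0.046 (Gsr), -0.68 to 0.30 (Gclc) and -0.28 to 0.33 (Srxn1). Gsr was 0.0073 with median-of-ratios scaling and 0.028 with the 2 groups alone without control replicate 2, and Srxn1 was -0.062 with library totals. In DM+SGLT2i against C the ranges were -0.039 to 0.030 (Keap1), -0.016 to 0.15 (Nfe2l2) and -0.21 to 0.077 (Gclm), and Keap1 was -0.0016 with median-of-ratios scaling. In DM+SGLT2i against DM-22 they were -0.17 to 1.07 (Nqo1), -0.19 to 0.15 (Gclm), -0.047 to 0.94 (Gclc) and -0.045 to 0.57 (Srxn1), and library totals gave 0.0078 for Nfe2l2 and 0.084 for Gclm. For the 4 diabetic libraries against C they were -0.10 to 0.13 (Txnrd1), -0.14 to 0.030 (Gclm), -0.020 to 0.10 (Gsr) and -0.21 to 0.28 (Gclc), and library totals gave -0.0021 for Txnrd1 and -0.0027 for Gclc. The scaling by totals moved the median of all genes by 0.11 in DM+SGLT2i against DM-22. The cause of these reversals was not tested. Depth limits only Slc7a11, with 5 to 56 reads.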
